A study of Mus musculus with 6 samples.

Results

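DnaJ proteins, also called Hsp40 cochaperones, were described in RNA from the mouse frontal cortex after repeated dosing with SAHA. The members were all genes whose symbol in the platform's annotation starts with Dnaja, Dnajb or Dnajc and a number. They number 45 of the 19938 genes measured, with 4 in class A, 13 in class B and 28 in class C. RefSeq (assembly GRCm38.p6) lists 45 protein-coding mouse genes with such symbols, and each of them was measured. The study compared 3 libraries from mice given SAHA (suberoylanilide hydroxamic acid, vorinostat), an inhibitor of histone deacetylases, at 20 mg per kg by intraperitoneal injection for 21 days, with 3 libraries from mice given the vehicle, titled saline. All mice were wild type, of strain 129S6/SvEv and 8 to 12 weeks old, and the frontal cortex of both sides was dissected on the day following the final dose (1 day). Each library was measured on 1 Affymetrix whole-transcript array, and values are log2 signals. Nothing in the labels says that the 3 libraries of a group are 3 mice, and the p-values then cover only the spread between these arrays, part of which may be technical.

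A DnaJ protein carries a J domain, which binds an Hsp70 chaperone and speeds the hydrolysis of its ATP, so that Hsp70 closes on an unfolded client. Class A proteins hold a J domain, a glycine- and phenylalanine-rich stretch and a zinc finger, class B proteins lack the zinc finger, and class C proteins share only the J domain. In neurons the family is known for keeping synaptic vesicle proteins folded, for stripping clathrin from vesicles, and for holding aggregation-prone proteins in solution. Other members serve the endoplasmic reticulum, the mitochondrion and the ribosome.

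Neuronal markers were read to describe the tissue. The 5 measured markers of excitatory neurons, Slc17a7, Camk2a, Neurod6, Tbr1 and Neurod2, lay at or above the median signal of all genes. Such signals do not show whether the dissections matched. The groups did not overlap for 3 of these 5, beside 23.9% of all genes. Neurod6 was lower in SAHA, at -0.23, and Slc17a7 and Neurod2 were higher, at 0.11 and 0.10. Camk2a and Tbr1 differed by -0.014 and -0.019, with overlapping groups. The part of these 5 in the DnaJ values was not tested. Striatal neuron markers, 5 measured, had library medians relative to the saline mean of -0.19, -0.044 and 0.21 in SAHA replicates 1 to 3. In saline replicates 1 to 3 they were -0.040, -0.19 and 0.23, and their part in the DnaJ values was not tested. Sex-linked transcripts set SAHA replicate 3 and saline replicate 1 apart from the other libraries. Xist, the RNA of the inactive X chromosome, was at 10.91 in saline replicate 1, against 4.63 to 4.88 in the other libraries. The Y-linked gene Eif2s3y was at 7.80 in SAHA replicate 3, against 9.18 to 9.25 in the others. Saline replicate 1 thus held both Xist and Y-linked RNA, with Eif2s3y at 9.20. In SAHA replicate 3 the lower Eif2s3y came without raised Xist, which was at 4.76. The cause was not tested. Of 5 measured markers of blood cells, 4 were higher in SAHA at an unadjusted p under 0.05 in limma. These 4 lay below the median signal of all genes, where 1954 of 9969 genes were higher at that threshold. The other, Alas2, lay at or above the median signal and differed by 0.044. The library medians of the 5 relative to the saline mean were 0.28 to 0.29 in SAHA and -0.046 to 0.034 in saline. The part of these markers in the DnaJ values was not tested. Oligodendrocyte markers, 7 measured, had library medians of -0.19, -0.22 and 0.14 in SAHA replicates 1 to 3, against -0.037 to 0.029 in saline.

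No DnaJ gene passed. With Benjamini-Hochberg adjustment over all genes, limma called 0 of 45 members and 0 of 19938 genes (0.0%), and the lowest adjusted p among the members was 0.175. At an unadjusted p under 0.05 limma placed 3 members, or 6.67%, beside 17.4% of all genes. These were Dnajc22, higher in SAHA, beside 11.9% of all genes in that direction, and Dnajc10 and Dnajb7, lower in SAHA, beside 5.56% of all genes. The 3 SAHA values lay wholly above or below the 3 saline values for 7 members, or 15.6%, beside 23.9% of all genes. Of these, 2 were higher, beside 13.6% of all genes, and 5 lower, beside 10.4%. Both shares were below those of all genes in the deposited values, a gap that was not tested. Among the 36 members at or above the median signal, the same limma fit placed 1, or 2.78%, under the unadjusted threshold. Of all such genes it placed 12.4%. Groups did not overlap for 5 of the 36, or 13.9%, beside 24.5%, and 4 of these were lower, beside 1733 of 9969 such genes. Over all 45 members, the order of the non-overlapping shares depended on the scaling. Non-overlapping members were 12, or 26.7%, after quantile normalization, beside 19.8% of all genes, 11, or 24.4%, after cyclic loess normalization, beside 19.8%, and 12 after median centring, beside 25.3%. At an unadjusted p under 0.05 limma placed 5 members, or 11.1%, after each of these scalings, beside 13.2% of all genes after quantile normalization, 13.1% after cyclic loess normalization and 18.0% after median centring. Without SAHA replicate 3 and saline replicate 1, limma placed 3 members under the unadjusted threshold, again with 0 past adjustment, beside 10.4% of all genes, and 16 members did not overlap, beside 42.3% of all genes. In a whole-tissue sample, fewer cells of a type and less RNA per cell cannot be told apart.

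The precision bounds what could have been missed. The standard error (SE) of a member's difference, in log2 units, had a median of 0.066 and reached 0.15. For 28 of 45 members the 95% confidence interval of SAHA minus saline lay inside 0.26 log2 units in either direction, a 1.2-fold change. For 44 it lay inside 0.58, a 1.5-fold change. The exception was Dnajc22. These bounds are not detection limits, since Dnajc10 and Dnajb7 differed by less and still had intervals that leave out 0.

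**Figure D1:**
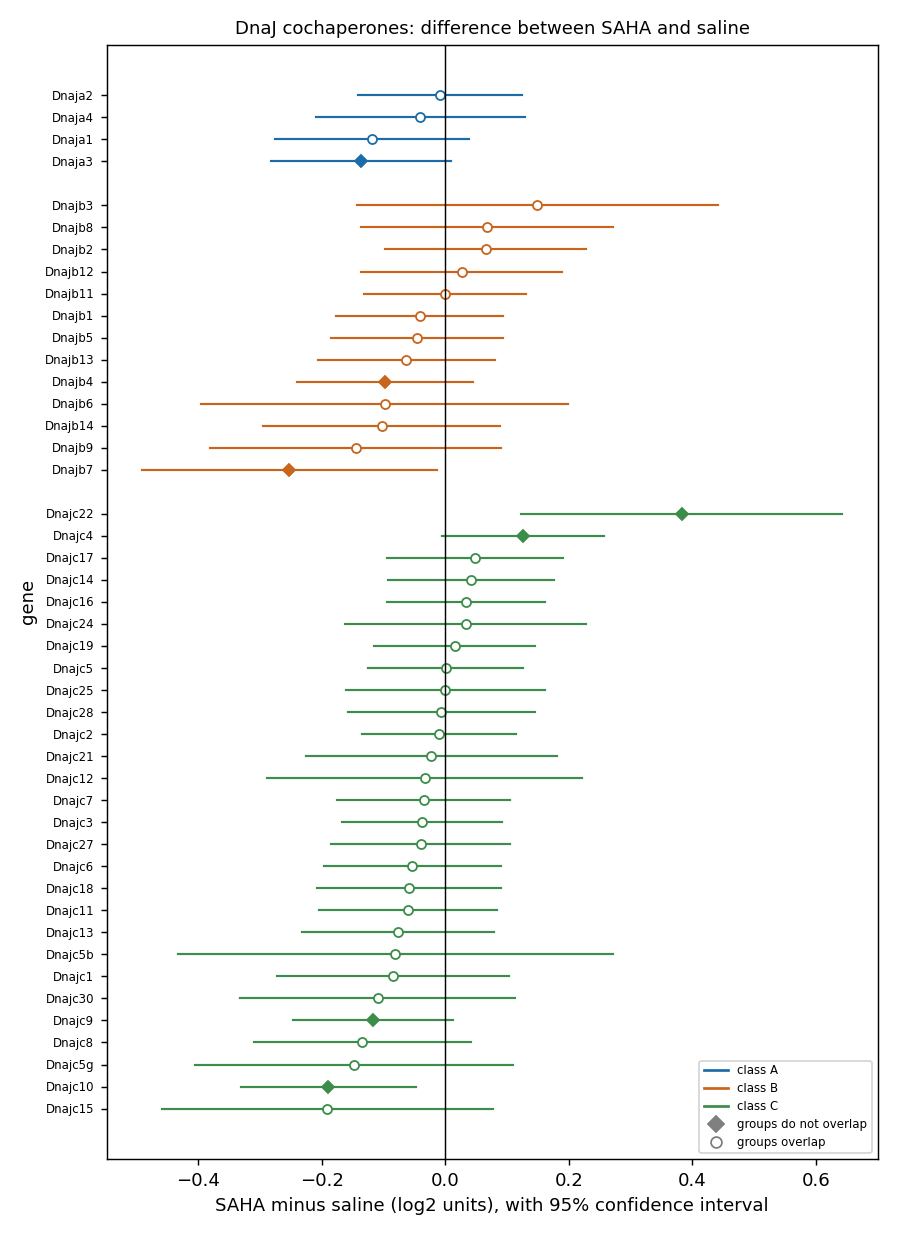
Difference of each of the 45 DnaJ genes, SAHA minus saline in log2 units on the x axis, with the 95% confidence interval of the limma fit (n = 3 per group). Genes run down the page by class, and filled diamonds mark the 7 genes whose groups do not overlap; the intervals of Dnajc22, Dnajc10 and Dnajb7 leave out 0.

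The class A members are the general cytosolic and mitochondrial partners of Hsp70. Dnaja3, also known as Tid1, works in the mitochondrial matrix. It was at 8.67, 8.56 and 8.59 in SAHA replicates 1 to 3, against 8.81, 8.70 and 8.72 in saline. All 3 SAHA values were below all 3 saline values, with a difference of -0.14 (SE 0.063) and an adjusted p of 0.310 in limma. After quantile and cyclic loess normalization the difference was -0.081 and -0.080, and the groups overlapped. Dnaja1, a heat-inducible cytosolic cochaperone of Hsc70, was at 11.82, 11.92 and 11.74 in SAHA and at 11.99, 11.89 and 11.97 in saline. The groups overlapped through SAHA replicate 2 and saline replicate 2, and the difference was -0.12 (SE 0.068, adjusted p of 0.394 in limma), or -0.056 without SAHA replicate 3 and saline replicate 1. Dnaja4, another heat-inducible member, was at 7.50, 7.64 and 7.41 in SAHA and at 7.53, 7.59 and 7.55 in saline, so the SAHA values lay on both sides of the saline values. Its difference of -0.041 turned to 0.0022 without SAHA replicate 3 and saline replicate 1. Dnaja2, the constitutive cytosolic member, was at 10.70, 10.78 and 10.71 in SAHA and at 10.77, 10.74 and 10.71 in saline. Its groups overlapped, and its difference of -0.0086 had a 95% interval of -0.14 to 0.12. It was 0.048 after quantile normalization and 0.014 without SAHA replicate 3 and saline replicate 1.

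The heat-inducible cytosolic members are textbook targets of the heat shock factor HSF1, which binds inverted repeats of the bases GAA. All 5 listed members, Dnaja1, Dnaja4, Dnajb1, Dnajb4 and Dnajb5, had differences below 0 in the deposited values, with a median of -0.046, though Dnajb1 and Dnajb5 were above 0 after quantile normalization. All 5 lay at or above the median signal, where 66.4% of all genes were below 0. Of them 0 were under an unadjusted p of 0.05 in limma, beside 17.4% of all genes and 12.4% of those at or above the median signal. Dnajb1, the main partner of inducible Hsp70, was at 8.01, 8.03 and 8.00 in SAHA and at 8.06, 8.11 and 7.99 in saline. The groups overlapped at a difference of -0.042 (95% interval -0.18 to 0.094), which was 0.0068 after quantile normalization. Dnajb4 was at 10.41, 10.55 and 10.49 in SAHA and at 10.62, 10.57 and 10.56 in saline. Its SAHA values were all lower, the closest pair being 10.55 in SAHA and 10.56 in saline, and the difference was -0.098 (SE 0.061, adjusted p of 0.431 in limma). It was -0.040 after quantile normalization, -0.043 after cyclic loess normalization and -0.062 without SAHA replicate 1. Dnajb5, found bound to the deacetylase HDAC4 in heart muscle cells of rodents, was at 8.31, 8.39 and 8.34 in SAHA and at 8.34, 8.39 and 8.45 in saline. Its groups overlapped, and the difference of -0.046 was 0.0045 after quantile normalization.

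Promoters are shown for 2 cytosolic and 2 endoplasmic reticulum members so that the values can be read beside stress elements in the sequence. Each line gives the 250 bases before a RefSeq transcription start, from the 5′ end on the gene's strand, in build GRCm38.p6. Windows were found for 37 of the 45 members, some with several starts. Capitals mark the inverted heat shock pair in either form, GAANNTTC or TTCNNGAA, and in Dnajc3 the endoplasmic reticulum stress element, which is CCAAT and CCACG with 9 bases between them, each searched on both strands. In Dnajb6 the forms overlap.
Dnaja1, chr4:40722218-40722467, plus strand: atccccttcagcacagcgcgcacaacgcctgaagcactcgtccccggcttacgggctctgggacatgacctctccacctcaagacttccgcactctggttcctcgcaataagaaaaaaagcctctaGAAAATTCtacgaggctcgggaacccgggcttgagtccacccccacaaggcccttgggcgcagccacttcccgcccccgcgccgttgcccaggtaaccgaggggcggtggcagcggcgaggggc
Dnajb6, chr5:29735648-29735897, plus strand: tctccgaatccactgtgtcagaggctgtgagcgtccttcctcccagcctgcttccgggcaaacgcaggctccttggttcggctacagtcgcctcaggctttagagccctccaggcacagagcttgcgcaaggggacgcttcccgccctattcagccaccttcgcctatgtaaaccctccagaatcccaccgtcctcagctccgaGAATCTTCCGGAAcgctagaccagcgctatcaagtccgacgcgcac
Dnajc10, chr2:80315216-80315465, plus strand: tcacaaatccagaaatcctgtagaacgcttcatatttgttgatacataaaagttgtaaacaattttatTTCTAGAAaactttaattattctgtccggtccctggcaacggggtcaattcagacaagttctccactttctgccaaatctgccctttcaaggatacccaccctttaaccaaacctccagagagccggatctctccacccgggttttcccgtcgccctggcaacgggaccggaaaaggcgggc
Dnajc3, chr14:118937682-118937931, plus strand: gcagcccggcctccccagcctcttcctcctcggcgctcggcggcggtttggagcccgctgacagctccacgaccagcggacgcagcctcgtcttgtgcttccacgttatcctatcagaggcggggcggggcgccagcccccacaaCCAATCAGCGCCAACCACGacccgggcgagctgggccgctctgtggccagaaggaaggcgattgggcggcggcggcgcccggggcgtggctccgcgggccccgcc

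The heat shock pair lay in a window of 6 of the 37 members, Dnaja1, Dnaja4, Dnajb4, Dnajb6, Dnajc10 and Dnajc27. Over all genes with a window, 14.5% held it in at least 1 window. In the windows printed it began 124 bases before the start in Dnaja1, 46 in Dnajb6 and 182 in Dnajc10. Dnaja1 had 3 windows, of which the other 2 held no pair, and from a second start of Dnajb6 the same pair lay 127 bases upstream. The endoplasmic reticulum stress element lay in 1 member, Dnajc3, 105 bases before the start, and in 0.130% of all genes. A match of letters is a description of the sequence and not a measured binding site.

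Dnajb6 and Dnajb2 are known for protecting neurons from aggregating proteins. Dnajb6, which blocks the assembly of polyglutamine fibres, was at 6.61, 7.03 and 6.67 in SAHA and at 6.67, 7.00 and 6.94 in saline. The spread within each group, an SD of 0.22 in SAHA and 0.18 in saline, exceeded the difference of -0.099 (SE 0.13), which leaving out SAHA replicate 1 moved to -0.019 and leaving out SAHA replicate 2 to -0.23. Its probe set here carries 1 transcript accession, and the probe sets it shares with another symbol were not used. Dnajb2, a neuronal member that hands clients to the proteasome, was at 6.64, 6.85 and 6.75 in SAHA and at 6.70, 6.71 and 6.63 in saline. The groups overlapped, with a difference of 0.065 (95% interval -0.098 to 0.23), or 0.0064 after quantile normalization. Dnajc7, which passes clients between Hsp70 and Hsp90, and Dnajc12, a cochaperone of the enzymes that hydroxylate aromatic amino acids, differed by -0.035 and -0.034, both with overlapping groups.

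Of 4 members listed here under synaptic vesicle, clathrin and endosome traffic, 0 were under an unadjusted p of 0.05 in limma. Beside them stood 17.4% of all genes and 12.4% of those at or above the median signal, where all 4 lay. The members are too few to set apart from these shares. Dnajc5, the cysteine string protein that keeps SNAP-25 folded at the nerve terminal, was at 10.15, 10.12 and 10.16 in SAHA and at 10.16, 10.14 and 10.13 in saline. The difference was 0.00043 with a 95% interval of -0.12 to 0.13, and it turned to -0.038 after median centring. Dnajc6, the neuronal auxilin that uncoats clathrin vesicles, was at 10.42, 10.52 and 10.53 in SAHA and at 10.58, 10.56 and 10.49 in saline. Its groups overlapped, and the difference of -0.054 was 0.0057 after quantile normalization. Dnajc13, the endosomal protein RME-8, was at 11.12, 11.16 and 11.06 in SAHA and at 11.28, 11.18 and 11.11 in saline. These groups overlapped too, at a difference of -0.077 (SE 0.067), or -0.0050 without SAHA replicate 3 and saline replicate 1. Dnajc27, listed with them although a role in such traffic is not established for it, differed by -0.040.

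In the endoplasmic reticulum 11 members were measured, 7 of them below 0, with a median of -0.038. All 11 lay at or above the median signal, where 66.4% of all genes were below 0, with a median of -0.039. Dnajc10, also known as ERdj5, reduces the disulfide bonds of misfolded proteins before their export for degradation. It was at 9.15, 9.13 and 9.10 in SAHA, against 9.39, 9.25 and 9.30 in saline. All 3 SAHA values were lower, and the SAHA values were closer together (SD 0.027) than the saline values (SD 0.069). The difference was -0.19 (SE 0.061), at an unadjusted p of 0.0151 and an adjusted p of 0.196 in limma. It was -0.12 after quantile normalization and -0.14 without SAHA replicate 3 and saline replicate 1, at unadjusted p of 0.0754 and 0.123 in limma. Without saline replicate 1 alone it was -0.15, at an unadjusted p of 0.0516 in limma.

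Among the other members of that compartment, Dnajb9, or ERdj4, which holds the stress sensor IRE1 inactive, was at 9.13, 9.45 and 9.36 in SAHA and at 9.60, 9.32 and 9.45 in saline, with overlapping groups and a difference of -0.15 (SE 0.10). Its 95% interval of -0.38 to 0.090 held the value of Dnajc10, and the difference was -0.056 with SAHA replicate 1 left out and -0.21 with SAHA replicate 2 left out. Dnajb11, or ERdj3, which brings unfolded proteins to BiP, was at 9.40, 9.42 and 9.36 in SAHA and at 9.42, 9.35 and 9.41 in saline. Its groups covered the same range, with a difference of -0.00016 and a 95% interval of -0.13 to 0.13, and it was 0.068 after quantile normalization. Dnajc3, or p58IPK, a lumenal cochaperone of BiP, was at 9.80, 9.87 and 9.87 in SAHA and at 9.90, 9.87 and 9.89 in saline. Its groups overlapped by a small margin, and the difference was -0.038 (95% interval -0.17 to 0.092), or 0.016 after quantile normalization. Dnajb14, a membrane member that recruits cytosolic Hsc70, was at 8.59, 8.78 and 8.62 in SAHA and at 8.89, 8.65 and 8.76 in saline, with overlapping groups and a difference of -0.10 (SE 0.083), or -0.024 without SAHA replicate 3 and saline replicate 1. The 6 others, Dnajb12, Dnajc1, Dnajc14, Dnajc16, Dnajc18 and Dnajc25, differed by -0.085 to 0.041.

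Of the 7 mitochondrial members, 5 were below 0, with a median of -0.061, beside 66.4% below 0 among all genes at or above the median signal, where all 7 lay. Under an unadjusted p of 0.05 in limma were 0 of the 7, beside 17.4% of all genes and 12.4% of those at or above the median signal. Dnajc15, an inner membrane protein that restrains complex I of the respiratory chain, was at 8.61, 8.62 and 8.37 in SAHA and at 8.92, 8.51 and 8.73 in saline. The libraries of each group spread widely and overlapped, and the difference was -0.19 (SE 0.12, adjusted p of 0.419 in limma). It was -0.0086 without SAHA replicate 3 and saline replicate 1, and -0.091 to -0.30 with 1 library left out. Dnajc19, a part of the motor that pulls proteins into the matrix, was at 8.00, 7.99 and 8.05 in SAHA and at 8.00, 8.03 and 7.97 in saline. These values interleaved, with a difference of 0.015 (95% interval -0.12 to 0.14) that was -0.024 after median centring and -0.0039 without SAHA replicate 3 and saline replicate 1. Dnajc4 was at 7.68, 7.70 and 7.72 in SAHA, against 7.60, 7.52 and 7.60 in saline. All 3 SAHA values were higher, with a difference of 0.13 (SE 0.057) and an adjusted p of 0.303 in limma. Its difference was 0.14 after quantile and after cyclic loess normalization, at unadjusted p of 0.0283 and 0.0315 in limma. After median centring it was 0.087, at an unadjusted p of 0.195 in limma. Dnajc11, Dnajc28 and Dnajc30 differed by -0.11 to -0.0066, with overlapping groups.

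Among the 6 members of nucleus, ribosome and translation, Dnajc9, a chaperone of histones H3 and H4, was at 8.56, 8.61 and 8.60 in SAHA, against 8.74, 8.71 and 8.68 in saline. All 3 SAHA values were lower, by a mean of -0.12 (SE 0.056), at an adjusted p of 0.322 in limma. The difference was -0.055 after quantile normalization and -0.10 without SAHA replicate 3 and saline replicate 1. The splicing-associated Dnajc8 differed by -0.13 with overlapping groups, and the ribosome-bound Dnajc2 by -0.010. Dnajc17, Dnajc21 and Dnajc24 lay between -0.023 and 0.048.

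**Figure D2:**
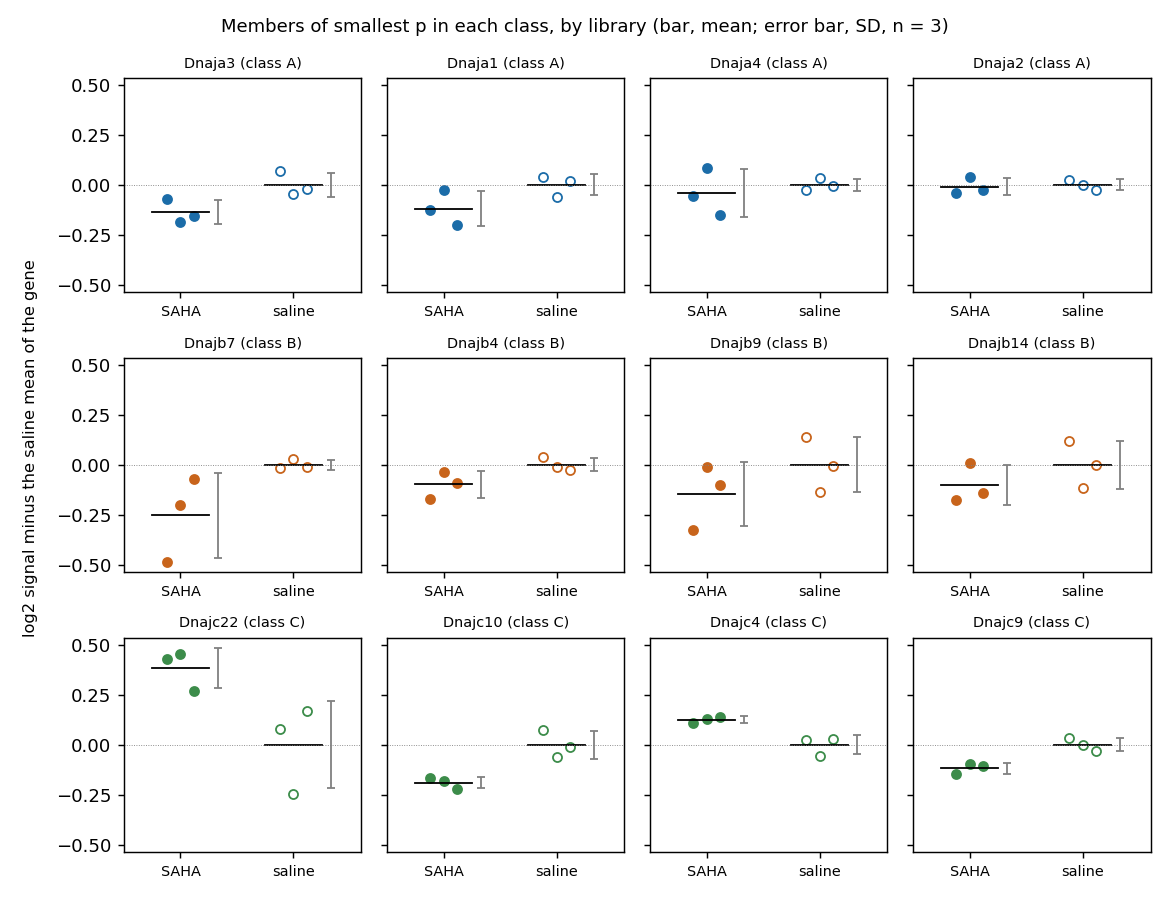
Log2 signal minus the saline mean of the gene (y axis) in each library, for the 4 members of smallest p in each class; SAHA, filled, stands left of saline, open, with replicates 1 to 3 from left to right, bars at the mean and error bars of 1 SD (n = 3). Dnajc22 and Dnajc4 are higher in all SAHA libraries, Dnaja3, Dnajb7, Dnajb4, Dnajc10 and Dnajc9 are lower in all of them, and the other 5 genes overlap.

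The greatest differences belonged to dim probe sets. Dnajc22, a membrane protein whose fly counterpart in Drosophila, wurst, serves clathrin-mediated endocytosis, was at 5.70, 5.72 and 5.54 in SAHA, against 5.35, 5.02 and 5.44 in saline. All 3 SAHA values were higher, with a difference of 0.38 (SE 0.11), a 1.30-fold level, at an unadjusted p of 0.00949 and an adjusted p of 0.175 in limma. It was under the unadjusted threshold in all 13 alternatives in which it was tested, with differences of 0.26 to 0.48, and past adjustment in none of them, with a lowest adjusted p of 0.141. Dim genes mostly rose: all genes with signals of 4.86 to 5.62 had a median difference of 0.11 as deposited. Below the median signal, 1954 of 9969 genes were higher at an unadjusted p under 0.05 in limma. After quantile and cyclic loess normalization Dnajc22 differed by 0.27 and 0.28, close to the threshold at unadjusted p of 0.0475 and 0.0450 in limma. Without SAHA replicate 3 and saline replicate 1 it was 0.48. Dnajb7, known mainly from testis, was at 5.28, 5.56 and 5.70 in SAHA, against 5.75, 5.79 and 5.76 in saline. SAHA replicate 1 was far below the other libraries, while SAHA replicate 3 was close to saline. The difference of -0.25 (SE 0.10, unadjusted p of 0.0405, adjusted p of 0.266) was -0.14 with SAHA replicate 1 left out and -0.34 with SAHA replicate 3 left out. It was -0.36 after quantile normalization and -0.35 without SAHA replicate 3 and saline replicate 1. The 6 testis-enriched members, Dnajb3, Dnajb7, Dnajb8, Dnajb13, Dnajc5b and Dnajc5g, all had signals below the median of all genes, and the other 5 differed by -0.15 to 0.15. The files hold no detection calls, so it is not known which of these signals exceed background.

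The size of the family's difference depended on the scaling of the arrays. Its median was below 0 under all 4 scalings, but close to 0 after quantile and cyclic loess normalization. After these the median of class C was above 0. In the deposited values 32 of 45 members were below 0 and the median was -0.041, but 23 were below 0 after quantile normalization and 24 after cyclic loess normalization, with medians of -0.0055 and -0.0030. Over all genes the median was 0.011 as deposited. Median centring shifts each gene by the same amount, and after it 38 members were below 0, at a median of -0.080 beside -0.028 for all genes. The class medians were -0.080, -0.046 and -0.036 in classes A, B and C as deposited. After quantile normalization they were -0.053, -0.0091 and 0.011, so that of class C turned sign. Without SAHA replicate 3 and saline replicate 1, 29 members were below 0 and the median was -0.013.

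**Figure D3:**
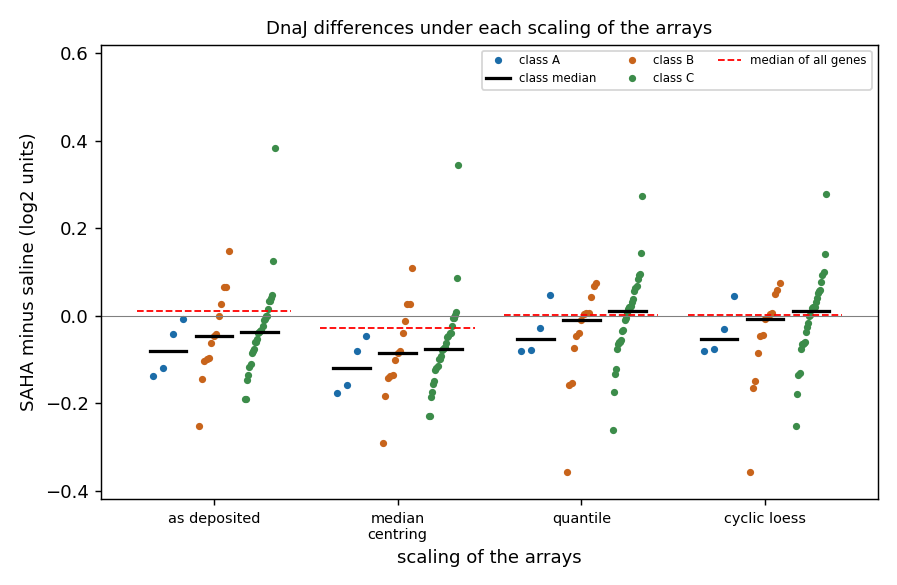
SAHA minus saline in log2 units (y axis) of every DnaJ gene under 4 scalings of the arrays (x axis), by class, with the class median as a black bar and the median of all genes as a dashed line. The class C median is -0.036 as deposited and 0.011 after quantile normalization.

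Most members lay among the brighter genes, and these were also mostly below 0. Of the 45, 36 lay at or above the median signal of all genes. There, 27 of 36 members were below 0, or 75%, with a median of -0.040, beside 66.4% of all such genes, with a median of -0.039. The 9 dimmer members had a median of -0.063, while all dimmer genes had a median of 0.089. The library medians of the 45 members relative to the saline mean were -0.073, -0.011 and -0.048 in SAHA replicates 1 to 3, against 0.034, -0.0083 and -0.013 in saline. For all genes at or above the median signal they were -0.062, -0.018 and -0.031 in SAHA, against 0.013, -0.0012 and -0.014 in saline. In both sets SAHA replicate 1 was the lowest library and saline replicate 1 the highest.

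**Figure D4:**
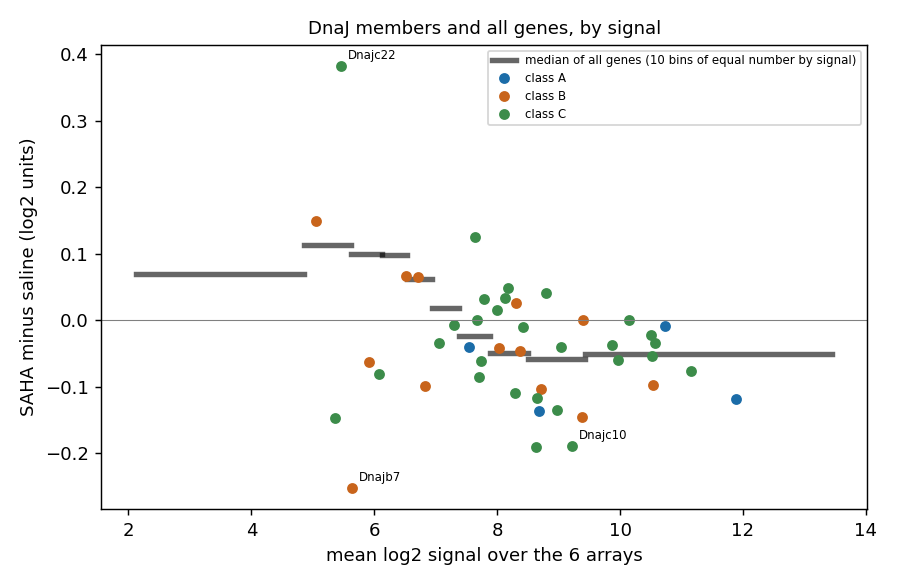
SAHA minus saline in log2 units (y axis) against the mean log2 signal over 6 arrays (x axis) for the 45 DnaJ genes, by class, with the median difference of all genes in 10 bins of equal number by signal as grey bars. Most members sit in the brighter bins, where the median of all genes is below 0; Dnajc22 lies above its bin and Dnajb7 below.

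The partners of the family were read from lists of Hsp70 chaperones, their nucleotide exchange factors and other cochaperones. Of 34 listed genes 31 were measured, 22 of them below 0. Of the 31, 27 lay at or above the median signal, where 66.4% of all genes were below 0. In limma 0 of 31 were under an adjusted p of 0.05 and 0 under an unadjusted p of 0.05, beside 17.4% of all genes. The groups did not overlap for 6 of 31, or 19.4%, beside 23.9% of all genes. Among 10 Hsp70 genes 9 were below 0, with a median of -0.079. At or above the median signal, where 9 of the 10 lay, the median of all genes was -0.039. Hspa12a, an atypical Hsp70 of brain, was at 9.53, 9.56 and 9.61 in SAHA, against 9.72, 9.65 and 9.67 in saline. Its SAHA values were all lower, with a difference of -0.11 (SE 0.058, adjusted p of 0.346 in limma), or -0.048 after quantile normalization. Hspa8, the constitutive Hsc70, and Hspa14, a ribosome-associated Hsp70, each differed by -0.079, and their SAHA values were also all lower. Hspa2, a testis-rich Hsp70, was at 7.43, 7.12 and 7.49 in SAHA and at 7.62, 7.60 and 7.42 in saline, with overlapping groups and a difference of -0.20 (SE 0.11), or -0.090 without SAHA replicate 2.

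The exchange factors, which release ADP from Hsp70 and so end its grip on a client, were evenly split, with 5 of 10 below 0 outside the Hsp110 type. Bag5 was at 8.55, 8.70 and 8.47 in SAHA and at 8.81, 8.65 and 8.71 in saline, a difference of -0.15 (SE 0.079), or -0.055 without SAHA replicate 3 and saline replicate 1. Sil1, the exchange factor of BiP, was at 7.46, 7.42 and 7.79 in SAHA and at 7.23, 7.39 and 7.48 in saline, a difference of 0.19 (SE 0.11). It was 0.075 without SAHA replicate 3 and 0.0052 without both SAHA replicate 3 and saline replicate 1. Bag5 and Sil1 had overlapping groups. The groups did not overlap for 3 of the 10, or 30.0%, beside 23.9% of all genes, and the 10 are too few to set apart from that share. These were Bag1, lower in all SAHA libraries at -0.095, and Bag6 and Grpel2, higher in all of them at 0.088 and 0.11. They were chosen here after their values were seen. Of the 4 Hsp110-type factors, Hspa4 and Hspa4l differed by -0.061 and -0.059, and Hspa4 was at 0.0039 after quantile normalization. Stip1, which links Hsp70 to Hsp90, differed by -0.13 (SE 0.070), or -0.058 after quantile normalization, and St13, which slows client release, by -0.073 (SE 0.064). Of J-domain proteins with other symbols, Hscb, of iron-sulfur cluster assembly, differed by -0.15 (SE 0.093), or -0.061 without SAHA replicate 3. Its difference was -0.23 after quantile and after cyclic loess normalization, at unadjusted p of 0.0336 and 0.0349 in limma. Gak, the widely expressed relative of auxilin, differed by -0.050 (SE 0.055), or 0.0070 after quantile normalization. The groups of these 6 genes overlapped.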

How the data were processed

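The deposited values are log2 signals of 6 arrays, made by the authors with Affymetrix Expression Console and RMA, per the submitters' processing notes, which name no version. RMA sets the arrays to a common scale, so values of 1 array depend on the others. A gene was represented by its brightest probe set with a single symbol in the platform annotation, which gave 19938 genes from 35556 probe sets. Probe sets with several symbols were left out, 7 of them with a DnaJ symbol, and 3 of 34 partner genes were not analysed here. Sample titles gave the groups. The difference, SAHA minus saline, was fitted in limma 3.58.1 (lmFit, eBayes; R 4.3.3) and tested two-sided, with Benjamini-Hochberg adjustment over all genes and a threshold of 0.05. The fit was tested on simulated data. Members, lists and tests were chosen with earlier results of these data known. Named genes were the 4 of smallest p in each class, a set chosen by role, and the 2 of smallest p in each partner list. Other members were named after their values were seen. The alternatives are given with their effects in the closing section. Promoter sequences are RefSeq's. The number of arrays limits the precision, and 0 columns of sample values were left unused.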

Additional observations from a re-analysis of the deposited data

How the results depend on the processing

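With 3 arrays per group, no DnaJ gene passed adjustment as reported or in any of the 14 alternatives. The SE of a member's difference had a median of 0.066 and reached 0.15. Even the difference of Dnajc22, 0.38, did not pass, so changes well above a few percent can have been missed. The count of members at an unadjusted p under 0.05 in limma was 3 as reported (17.4% of all genes), 5 after median centring (18.0%), quantile (13.2%) or cyclic loess normalization (13.1%), 7 with a variance trend (19.0%), and 1 to 4 with a library left out (12.2 to 19.4%), the 1 being without saline replicate 1. Non-overlapping members numbered 7 as reported (23.9% of all genes), 12 after median centring (25.3%) or quantile normalization (19.8%), 11 after cyclic loess (19.8%), 16 without SAHA replicate 3 and saline replicate 1 (beside 42.3% of all genes, since fewer libraries overlap less) and 9 to 15 with 1 library left out (31.1 to 41.2%). The members' share exceeded that of all genes after median centring, quantile and cyclic loess normalization. Over all genes limma called 27 among those at or above the median signal and 28 with a variance trend, and 0 with any library left out. The class C median was -0.075 after median centring, 0.011 after quantile and 0.0098 after cyclic loess normalization.

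The replicate numbers gave no sign of pairing. Deviations of same-numbered libraries correlated at -0.10 to 0.015, beside -0.084 to 0.15 for other numbers, and 0 of 3 SAHA libraries correlated best with its own number. Deviations from the mean of 3 libraries are tied to each other, so these values cannot show whether same-numbered libraries were handled together. With the replicate block, 3 members were at an unadjusted p under 0.05 in limma, beside 15.5% of all genes.

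No named gene passed the adjusted threshold as reported, so for single genes the signs are compared, and for some the unadjusted threshold. Under an unadjusted p of 0.05 in limma, Dnajc22 stayed in all 13 alternatives, Dnajc10 in 10 of 14 and Dnajb7 in 8 of 13. Dnaja3, not under it as reported, came under it in 4 of 14. Of 457 single-gene values under alternatives, 423 kept their sign and 34 turned sign, in genes near 0. The variance trend, the replicate block and the restriction to genes at or above the median signal cannot change a difference. Averaging the probe sets of a gene changes it only in genes with several. Many of the 423 kept signs were therefore fixed in advance and say nothing about stability. After median centring Dnajc5 was -0.038 and Dnajc19 -0.024. After quantile normalization Dnaja2 was 0.048, Dnajb1 0.0068, Dnajb5 0.0045, Dnajc6 0.0057, Dnajb11 0.068, Dnajc3 0.016, Hspa4 0.0039 and Gak 0.0070. After cyclic loess Dnaja2 was 0.045, Dnajb5 0.0051, Dnajc6 0.0012, Dnajb11 0.059, Dnajc3 0.020 and Gak 0.0082. Without SAHA replicate 3 and saline replicate 1, Dnaja4 was 0.0022, Dnaja2 0.014, Dnajc5 -0.0011, Dnajb11 0.031 and Dnajc19 -0.0039. With 1 library left out, Dnaja2 ranged from -0.034 to 0.0079, Dnaja4 from -0.10 to 0.015, Dnajb11 from -0.022 to 0.016, Dnajc5 from -0.0085 to 0.014 and Dnajc19 from -0.0039 to 0.030. The cause of these turns was not tested.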

Other observations

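3 DnaJ genes had several probe sets with a single symbol. Dnajc13, which encodes the endosomal protein RME-8, had 15, and SAHA minus saline was below 0 in 14 of them, with a median of -0.072 and a range of -0.39 to 0.025 log2 units. The reported value used the brightest. The 2 probe sets of Dnaja1 differed by -0.12 and -0.11, while their signals lay up to 1.08 log2 units apart on 1 array. The 2 of Dnajc3 had identical values in every library and count as 1 measurement.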
